A study of Rattus norvegicus with 8 samples.

Results

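The miR-34 and miR-449 miRNAs form 1 family by their seed, the bases 2 to 8 through which a miRNA finds most of its targets. The members described here are every miRNA on the array named miR-34a, miR-34b, miR-34c or miR-449a, in either arm of its hairpin. The names gave 8 members of the 719 miRNAs on the array: rno-miR-34a-5p, rno-miR-34b-5p, rno-miR-34c-5p and rno-miR-449a-5p, and the 3p arms of the same 4 hairpins, rno-miR-34a-3p, rno-miR-34b-3p, rno-miR-34c-3p and rno-miR-449a-3p; the prefix for the rat is left out from here on. They were measured in C6, an established rat line derived from a glial tumour and labelled as glioblastoma, grown in medium with horse and fetal bovine serum. One group was left untreated, and in the others an antipsychotic drug was added every day for 5 days. The drugs were haloperidol at 2 µg/ml, risperidone at 4 µg/ml and clozapine at 25 µg/ml, so drug and concentration cannot be told apart in any comparison between drugs. Each group had 2 arrays, from cultures that the design text describes as biological repeats, which makes 8 arrays in all.

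A miRNA hairpin is cut into a 5p and a 3p arm, 1 of which is usually loaded into Argonaute and represses messenger RNAs while the other is mostly degraded. The genes of miR-34a and of the miR-34b and miR-34c pair are direct transcriptional targets of p53, and their 5p arms repress cyclins, cyclin-dependent kinases, Bcl2 and Sirt1, which slows the cell cycle and favours cell death. miR-449a carries the same seed, is known as a target of E2F1, and is abundant with miR-34b and miR-34c in ciliated epithelium, whereas miR-34a is made in many tissues, brain included, and has been studied as a tumour suppressor in glioma.

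The mature sequences show which members can share targets. They are given 5′ to 3′ as in RefSeq (GRCr8), where all 8 members were found by name, and the capitals mark the seed. The first 4 are the 5p arms, which share the seed GGCAGUG, and the last 4 are the 3p arms.
miR-34a-5p: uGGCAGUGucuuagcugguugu
miR-34b-5p: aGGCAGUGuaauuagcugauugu
miR-34c-5p: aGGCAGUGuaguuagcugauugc
miR-449a-5p: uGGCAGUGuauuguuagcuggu
miR-34a-3p: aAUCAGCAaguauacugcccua
miR-34b-3p: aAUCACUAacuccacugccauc
miR-34c-3p: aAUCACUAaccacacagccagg
miR-449a-3p: cAGCUAACaugcaacugcucuc
Of the mature rat miRNAs in the RefSeq table, 5 have the seed GGCAGUG, and all 5 are on the array; the one outside the family as named here is miR-449c-5p. The 3p arms do not share that seed: miR-34b-3p and miR-34c-3p have AUCACUA, miR-34a-3p has AUCAGCA and miR-449a-3p has AGCUAAC. Counted from the 5′ end, miR-34b-5p and miR-34c-5p differ at 2 of 23 positions (A11G and U23C). miR-34a-5p and miR-449a-5p share their first 9 bases and then diverge.

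The 4 hairpins come from 3 loci. Mir34a lies at chr5:165815952-165816053 on the plus strand of GRCr8, within the long non-coding RNA gene LOC103692514. Its 102-base hairpin is shown as an example, and both arms were tested for miR-34b and miR-34c too. The capitals mark the 5p arm and then the 3p arm.
Mir34a hairpin: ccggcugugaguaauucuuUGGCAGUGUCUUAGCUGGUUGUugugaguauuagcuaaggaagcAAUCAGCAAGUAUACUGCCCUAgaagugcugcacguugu
Mir34b (chr8:60306609-60306692) and Mir34c (chr8:60306091-60306167) lie 442 bases apart on the minus strand, and both overlap the protein-coding gene Hoatz. Mir449a (chr2:46403910-46404000, plus strand) overlaps the long non-coding RNA gene LOC134485839 and lies 1437 bases from Mir449c.

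The arrays were of unequal brightness. Between 193 and 254 of the 719 miRNAs were detected per array, and between 17.7% and 25.9% of probes were well above background. Both lows are of risperidone 2, and clozapine 2 came next with 203 miRNAs and 18.9% of probes; the log10 signal of the labelling spike-in was also lowest on these arrays, at 2.73 and 2.88 against 2.99 to 3.12 on the others. All arrays sat on 1 slide, with replicate 1 of each group in row 1 and replicate 2 in row 2, and each group had a slide column of its own, so column and group cannot be told apart. All 5 astroglial marker miRNAs, among them miR-21-5p and miR-125b-5p, were detected on every array. Of 5 neuronal markers 3 were detected on every array, but miR-124-3p and miR-137-3p on none, and none of the 7 epithelial markers (the miR-200 and miR-141 group, miR-205 and miR-203a-3p) was detected on any array, each at the floor throughout. In RNA from whole cultures, fewer cells that make a miRNA and less of it per cell cannot be told apart.

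All 4 arms with the seed GGCAGUG were detected on all 8 arrays, and the 2 probes of each agreed in direction for haloperidol against control. Levels are given as log2 of the summed probe signal divided by the array's 75th percentile, so that 0 is that percentile, and a floor was set at -6.22. A level can be compared between arrays for 1 miRNA and not between miRNAs, since probes differ in brightness.

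miR-34a-5p, the member made in the widest range of tissues, was at 0.32 and 0.76 in the controls, 1.29 and 1.14 in haloperidol-treated cells, 1.03 and 0.69 after risperidone, and 0.57 and 0.63 after clozapine. Both haloperidol arrays stood above all the other arrays, and both clozapine arrays lay between the controls. The group means (SD, n = 2) were 0.54 ± 0.31 in the controls, 1.22 ± 0.11 in haloperidol-treated cells, 0.86 ± 0.24 after risperidone and 0.60 ± 0.044 after clozapine. The order of the means was thus haloperidol, risperidone, clozapine and control.

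miR-34b-5p, made from the hairpin beside that of miR-34c, was at -1.95 and -0.53 in the controls, -0.47 and 0.075 in haloperidol-treated cells, -0.33 and -0.50 after risperidone, and -1.35 and -0.31 after clozapine. Control 1 was the lowest array and clozapine 1 the next lowest, and the controls lay further apart than any drug mean did from the control mean. The means were -1.24 ± 1.003 in the controls, -0.20 ± 0.39 in haloperidol-treated cells, -0.41 ± 0.12 after risperidone and -0.83 ± 0.73 after clozapine.

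miR-34c-5p, which differs from miR-34b-5p at a pair of positions, was at -1.33 and -0.13 in the controls, -0.30 and 0.42 in haloperidol-treated cells, -0.28 and 0.073 after risperidone, and -0.79 and 0.12 after clozapine. Its controls spanned most of the range again, and control 2 lay above haloperidol 1, risperidone 1 and clozapine 1. The means were -0.73 ± 0.85, 0.060 ± 0.51, -0.10 ± 0.25 and -0.34 ± 0.64 in the same order of groups.

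miR-449a-5p was at -2.62 and -2.32 in the controls, -1.61 and -2.01 in haloperidol-treated cells, -1.76 and -2.55 after risperidone, and -2.09 and -2.06 after clozapine. Haloperidol and clozapine did not overlap the controls, while risperidone 2 lay between them. The means were -2.47 ± 0.21, -1.81 ± 0.28, -2.16 ± 0.56 and -2.08 ± 0.018. One of its 2 probes was not above background on risperidone 2, the dimmest array.

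**Figure D1:**
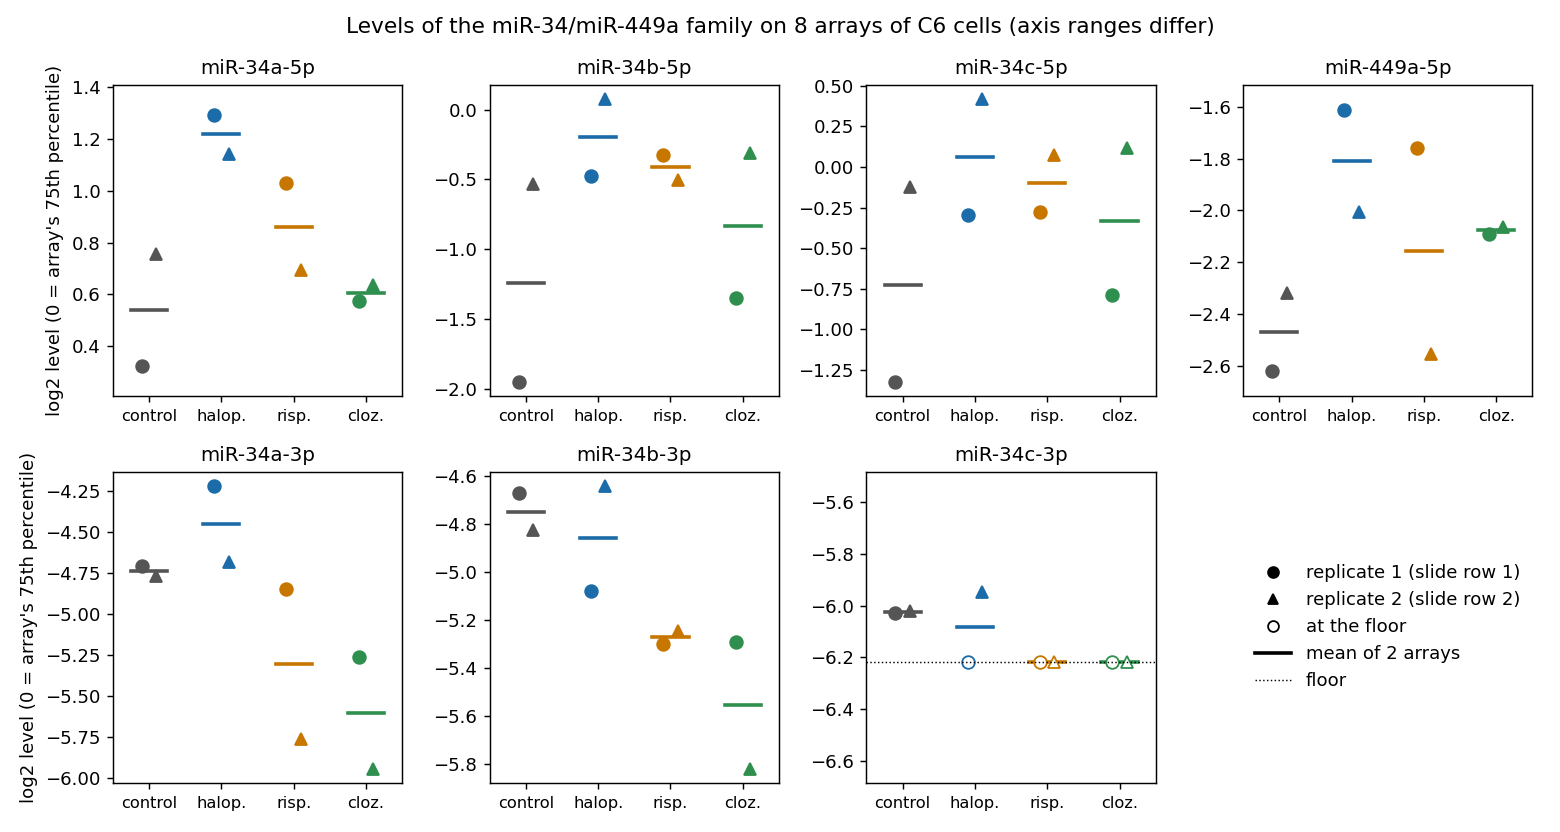
Log2 level of the 7 members tested, relative to each array's 75th percentile, on the 2 arrays of each group (circles, slide row 1; triangles, slide row 2; open symbols, at the floor of -6.22), with horizontal bars for group means and a separate y range in each panel. Both haloperidol arrays of miR-34a-5p, at 1.29 and 1.14, lie above the other 6, and the control arrays of miR-34b-5p lie far apart at -1.95 and -0.53.

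The first comparison asked what 5 days of haloperidol, a first-generation antipsychotic that blocks dopamine D2 receptors, did to these miRNAs. All 4 arms with the seed GGCAGUG had a positive mean difference, with a median of 0.73 on the log2 scale against -0.15 over all 243 miRNAs tested, but none passed the test. limma with Benjamini-Hochberg adjustment over the 243 called 0 miRNAs, 0% of those tested, at an adjusted p under 0.05, and 16 of 243 (6.58%) had an unadjusted p under 0.05, of which 1 is a member. That member was miR-34a-5p, 1.60-fold higher (log2 difference 0.68, SE 0.21, unadjusted p = 0.0189, limma adjusted p = 0.581). Its 95% interval ran from 0.16 to 1.19, and it ranked 24th highest of the 243 by its difference.

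miR-34b-5p had the largest difference of the family, 2.06-fold (log2 1.04, SE 0.57, limma adjusted p = 0.581), with an interval from -0.39 to 2.48. The difference of miR-34c-5p was 0.79 (SE 0.53) and that of miR-449a-5p 0.66 (SE 0.30). Both intervals held 0, running from -0.54 to 2.11 and from -0.10 to 1.42. miR-34a-5p had the smallest standard error of the 4 arms. The arrays of the 2 groups did not overlap for 4 members, with haloperidol the higher each time: miR-34a-5p, miR-34b-5p, miR-449a-5p and miR-34a-3p. The same held for 11.5% of all miRNAs tested; no member was lower without overlap, against 32.1% of all. Above 0 were 5 of the 7 members tested, against 37.9% of all, and the same 5 were above 0 within both slide rows, against 20.2%.

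Marker miRNAs of astroglia and of other cell types were also set beside the family. Astroglial miR-125b-5p and miR-23a-3p lay below both controls without overlap for haloperidol (-0.30 and -0.21) and risperidone (-0.28 and -0.28). For clozapine both overlapped the controls, and miR-21-5p, miR-27a-3p and miR-29a-3p overlapped them for each drug. Both oligodendrocyte markers were detected on all arrays, and their summed log2 level was -1.20 to -0.38 in the controls, -0.0039 to 0.43 after haloperidol, -0.13 to 0.66 after risperidone and 0.19 to 0.28 after clozapine. Of these, miR-338-3p lay above both controls on all 6 drug-treated arrays (differences of 1.02, 1.09 and 1.08 for haloperidol, risperidone and clozapine), whereas miR-219-5p overlapped the controls for each drug (0.82, 0.59 and 0.10). Of the 4 skeletal muscle markers, miR-1-3p and miR-133a-3p were detected on no array, while miR-206-3p and miR-133b-3p were detected in both controls. Their differences were -1.07, -1.47 and -1.21 for miR-206-3p and -0.94, -1.33 and -1.40 for miR-133b-3p, with every row 2 array of the drugs at the floor. The summed level of the muscle list was -3.25 to -2.56 in the controls and -4.22 to -2.94 after haloperidol. It was -4.22 to -3.53 after risperidone and -4.22 to -3.41 after clozapine. Floor values enter these sums, and -4.22 is the sum with all 4 miRNAs at the floor. Below both controls on all 6 drug-treated arrays were neuronal miR-128-3p (-0.40, -0.54 and -0.50) and leukocyte miR-150-5p (-0.59, -0.60 and -0.60). On those arrays miR-150-5p was at or next to the floor. Of the same lists, miR-9a-5p overlapped the controls for each drug. For haloperidol only, miR-218a-5p lay above them (0.26) and miR-223-3p below (-0.28). On haloperidol 1 miR-223-3p was undetected and at the floor, and within row 2 its haloperidol difference was -0.0056. Of all miRNAs tested, 32.1%, 32.9% and 33.7% lay below the controls without overlap for haloperidol, risperidone and clozapine, and 11.5%, 7% and 5.35% above. limma called none of the detected markers named here, and the part of these lists in the family's values was not tested.

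Row 1 gave the larger haloperidol differences for all 4 arms with the seed GGCAGUG. Their median was 1.02 in row 1 and 0.47 in row 2, while the median of all miRNAs was -0.16 and -0.14. For miR-34a-5p the difference was 0.97 in row 1 and 0.39 in row 2. Which control is used moved the values as far: without control 1 the differences of miR-34a-5p, miR-34b-5p, miR-34c-5p and miR-449a-5p were 0.46, 0.33, 0.19 and 0.51, and without control 2 they were 0.89, 1.75, 1.39 and 0.81. All 4 kept a positive difference under every alternative tried, from no scaling to each array left out in turn.

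For risperidone, a second-generation antipsychotic that blocks serotonin 5-HT2A and dopamine D2 receptors, the 4 arms had a median of 0.47 against -0.15 over all miRNAs. The differences were 0.83 (SE 0.57) for miR-34b-5p, 0.62 (SE 0.53) for miR-34c-5p, 0.32 (SE 0.21) for miR-34a-5p and 0.31 (SE 0.30) for miR-449a-5p, with limma adjusted p from 0.521 to 0.562. No member was called, nor was any other miRNA (0% of 243), and 21 miRNAs (8.64%) but no member had an unadjusted p under 0.05. Only miR-34b-5p lay above the controls without overlap, as did 7% of all miRNAs.

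The slide rows gave different accounts of risperidone. In row 1 the median of the 4 arms was 0.96, and in row 2, which holds the dimmest array, it was -0.017. In row 2 miR-34a-5p was at -0.063 and miR-449a-5p at -0.23 relative to the control of that row. Of the 7 members, 4 were above 0 on average, against 38.3% of all miRNAs, and 2 were above 0 within both rows, against 13.2%. Without scaling between arrays the differences of miR-34a-5p and miR-449a-5p turned negative, both to -0.30, where the median of all miRNAs was -0.64.

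For clozapine, which binds many dopamine, serotonin, histamine and muscarinic receptors, the 4 arms had a median of 0.39 against -0.17 over all miRNAs. miR-34a-5p was level with the controls, at 0.064 (SE 0.21, 95% interval -0.45 to 0.58). The differences of miR-34b-5p, miR-34c-5p and miR-449a-5p were 0.41 (SE 0.57), 0.39 (SE 0.53) and 0.39 (SE 0.30), with limma adjusted p of 0.756, 0.756 and 0.582. limma called 0 miRNAs (0% of 243); 36 miRNAs (14.8%) had an unadjusted p under 0.05, and the 1 member among them was a 3p arm. miR-449a-5p was the only member whose clozapine arrays both lay above the controls, which 5.35% of all miRNAs did. Above 0 were 4 of the 7 members, against 31.7% of all, and 3 within both rows, against 19.3%.

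The direction for clozapine changed with the arrays and the scaling. Without control 1 miR-34a-5p was at -0.15, miR-34b-5p at -0.30 and miR-34c-5p at -0.21, whereas miR-449a-5p stayed positive at 0.24. Without control 2 they were at 0.28, 1.12, 0.99 and 0.54. Without clozapine 2 miR-34b-5p was at -0.11 and miR-34c-5p at -0.064. With no scaling all 4 were negative, at -0.37, -0.019, -0.039 and -0.036, where the median of all miRNAs was -0.55.

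**Figure D2:**
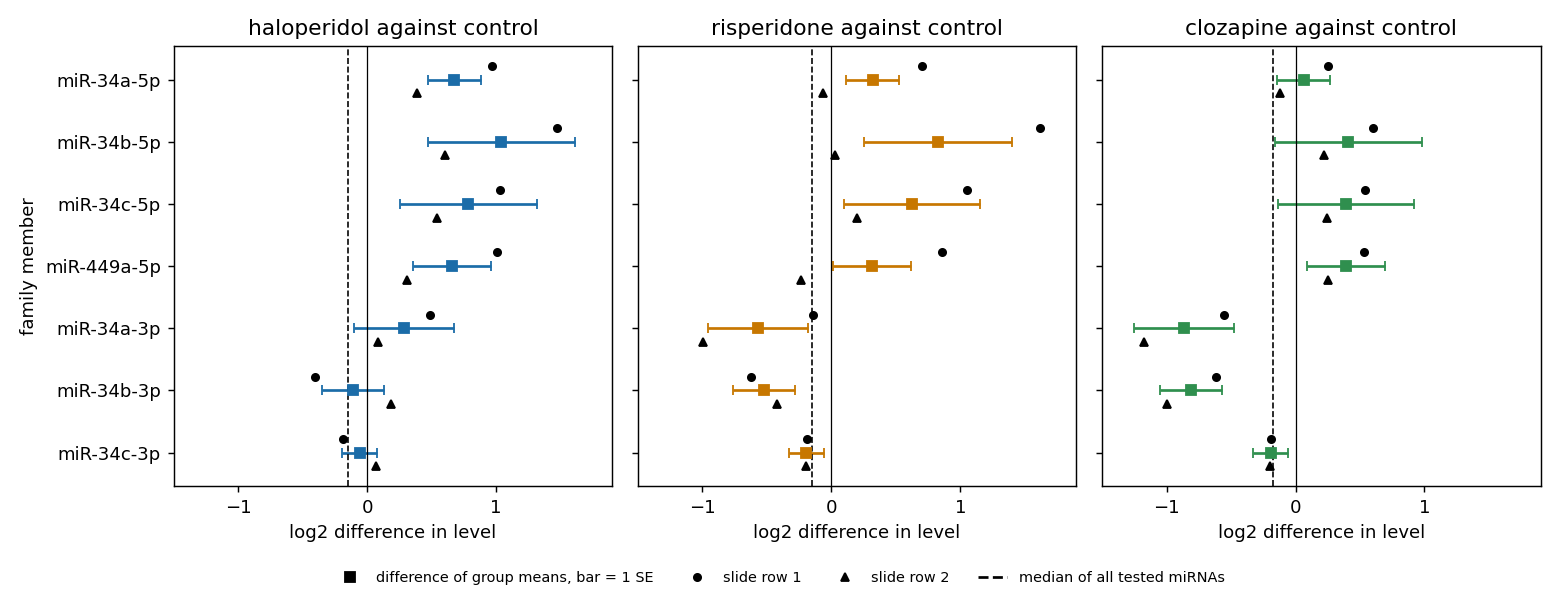
Log2 difference of each tested member from the untreated controls for haloperidol, risperidone and clozapine; squares are differences of group means with 1 SE from limma, black circles and triangles the differences within slide rows 1 and 2, and the dashed line the median of all 243 miRNAs tested. The upper 4 members, which share the seed GGCAGUG, lie right of 0 for haloperidol in both rows, and the 3p arms lie left of 0 for risperidone and clozapine.

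The 3p arms were near the limit of what the arrays could measure. miR-34a-3p was at -4.71 and -4.77 in the controls, -4.22 and -4.68 in haloperidol-treated cells, -4.85 and -5.76 after risperidone, and -5.26 and -5.94 after clozapine. It was detected on 7 arrays, risperidone 2 being the exception, and had a probe above background on 6, not on risperidone 2 or clozapine 2. On those arrays the lowest scaled probe signal well above background was at -5.01 and -5.68, higher than the level printed for miR-34a-3p.

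miR-34b-3p was at -4.67 and -4.83 in the controls, -5.08 and -4.64 in haloperidol-treated cells, -5.30 and -5.25 after risperidone, and -5.29 and -5.82 after clozapine. It too had a probe above background on all arrays but risperidone 2 and clozapine 2. All risperidone and clozapine arrays lay below both controls, while the haloperidol arrays spanned them.

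miR-34c-3p was at -6.03 and -6.02 in the controls and -5.95 on haloperidol 2, and the other 5 arrays were at the floor. Its signal came from 1 of its 4 probes, and the sum over probes was below 0 on 4 arrays although the scanner software listed it as detected on all 8. Its differences are therefore set by the floor. miR-449a-3p was detected on 0 of 8 arrays, its summed signal was below 0 on each, and it was not tested.

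Against control, the differences of miR-34a-3p were 0.29 (SE 0.39) for haloperidol, -0.57 for risperidone and -0.86 for clozapine. Those of miR-34b-3p were -0.11 (SE 0.24), -0.52 and -0.81. With clozapine miR-34b-3p had an unadjusted p of 0.0177 and a limma adjusted p of 0.326, and the other 3p arms had larger values. All 3 of these arms lay below the controls without overlap under risperidone and under clozapine, but so did 32.9% and 33.7% of all miRNAs tested. With normexp background correction the 3 differences turned positive, to between 0.41 and 0.48 for risperidone and between 0.70 and 0.89 for clozapine. The median of all miRNAs was then 0.37 and 0.55. That correction added an offset of 50 to every spot before probes were summed and scaled. On clozapine 2 the background-subtracted probe signals of miR-34a-3p were 2.11 and 9.07, and the part of the offset was not tested. Since neither miR-34a-3p nor miR-34b-3p was measured above background on risperidone 2 and clozapine 2, each of these risperidone and clozapine values rests on 1 measured array of 2 for the drug. The spike-in and detection counts given above were lowest on risperidone 2 and clozapine 2, and their part in the 3p values was not tested.

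Within a hairpin the printed 5p difference from control was above the 3p difference for all 3 pairs under all 3 drugs. The gaps for risperidone and clozapine are not exact. On 1 array of each drug miR-34a-3p and miR-34b-3p were not above background, and miR-34c-3p was at the floor on both arrays. The haloperidol gap of miR-34c is not exact either, as miR-34c-3p was at the floor on haloperidol 1. For miR-34a the gap between the arms' differences was 0.39 for haloperidol, 0.89 for risperidone and 0.93 for clozapine. For miR-34b it was 1.15, 1.35 and 1.22, and for miR-34c 0.84, 0.82 and 0.58. In row 1 miR-34a-3p and miR-34b-3p were above background on every array. The row 1 gaps for haloperidol, risperidone and clozapine were 0.48, 0.85 and 0.80 for miR-34a and 1.88, 2.25 and 1.22 for miR-34b. In row 2 those 3p arms were above background on the control and haloperidol arrays. The haloperidol gaps there were smaller, at 0.30 for miR-34a and 0.42 for miR-34b. With normexp the gap turned negative for miR-34a under risperidone (-0.10) and for all 3 hairpins under clozapine (-0.61 for miR-34a, -0.19 for miR-34b and -0.42 for miR-34c). The gaps share the controls and the same hairpins, and no test was made of them; with 2 arrays against 2 an exact permutation test cannot go below p = 0.333.

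The drugs were then set against each other, at the concentrations named above. All 7 tested members had a mean with clozapine below that with haloperidol, with a median difference of -0.61 against -0.091 over all miRNAs; 30.5% of all miRNAs, and 14% within both slide rows, lay above 0. limma called 0 miRNAs in this comparison (0% of 243). Only 3 miRNAs (1.23%) had an unadjusted p under 0.05, and these were miR-34a-5p, miR-34a-3p and miR-34b-3p. miR-34a-5p was 1.53-fold lower with clozapine (log2 difference -0.61, SE 0.21, unadjusted p = 0.0275, limma adjusted p = 1), at 0.57 and 0.63 against 1.29 and 1.14.

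The difference of miR-34a-3p was -1.15 (SE 0.39, unadjusted p = 0.0285, limma adjusted p = 1), and that of miR-34b-3p was -0.70 (SE 0.24, unadjusted p = 0.0307). Neither is an exact size, because no probe of these arms was above background on clozapine 2. Without that array they were at -0.81 and -0.43, with neither unadjusted p under 0.05. In row 1, where both arms of the Mir34a hairpin were measured on both arrays, clozapine minus haloperidol was -0.72 for the 5p arm and -1.04 for the 3p arm; in row 2 the 5p arm was at -0.51. The clozapine arrays lay below the haloperidol arrays without overlap for 4 members, these 3 and miR-449a-5p, against 16% of all miRNAs; no member was higher without overlap, against 6.17%. The differences of miR-34b-5p, miR-34c-5p and miR-449a-5p were -0.63, -0.40 and -0.27, with standard errors of 0.57, 0.53 and 0.30.

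These values moved with the processing. With the 75th percentile taken over all probes miR-34a-5p was at -0.087 and miR-34a-3p at -0.62, and the median of all miRNAs moved with them, to 0.41. With normexp miR-34a-3p and miR-34b-3p were higher with clozapine, at 0.75 and 0.79, while miR-34a-5p stayed lower at -0.54. miR-34a-5p had a negative difference under every alternative tried.

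Risperidone lay between the other drugs for miR-34a-5p, and neither neighbour in the order was separated by the test. Risperidone against haloperidol gave -0.36 for miR-34a-5p, with a 95% interval from -0.87 to 0.16, and clozapine against risperidone gave -0.26, with an interval from -0.77 to 0.26. All 7 members were lower with risperidone than with haloperidol on average, while 35% of all miRNAs were higher. For 3 members (miR-34a-5p, miR-34a-3p and miR-34b-3p) the arrays did not overlap, risperidone being lower, against 9.47% of all miRNAs, and for none was it higher without overlap, against 13.6%. For clozapine against risperidone the arrays of 1 member, miR-34a-5p, did not overlap, again against 9.47%, and 1 member, miR-449a-5p, had a difference above 0 (0.078), against 40.7%. limma called 0 miRNAs in either comparison (0% of 243 each), with 0 and 4 at an unadjusted p under 0.05 (0% and 1.65%), none of them a member.

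**Figure D3:**
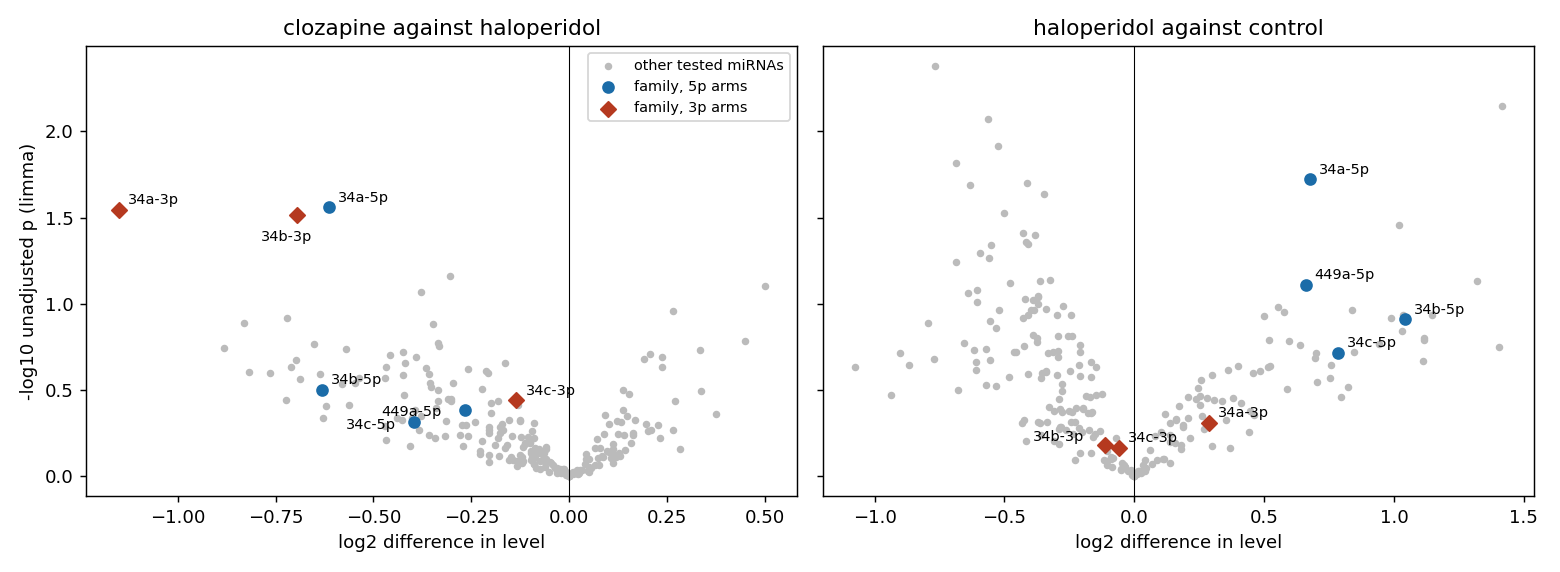
Log2 difference (x axis) and -log10 of limma's unadjusted p (y axis) of the 243 miRNAs tested, for clozapine against haloperidol and haloperidol against control, with the 5p arms of the family as blue circles and the 3p arms as red diamonds. On the left the 3 highest points are miR-34a-5p, miR-34a-3p and miR-34b-3p, and on the right miR-34a-5p lies among the 16 miRNAs under p 0.05; no point passes after adjustment, and on the left the 3p arms rest on 1 clozapine array above background.

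With all 4 groups in a single F test, limma likewise called 0 of 243 miRNAs (0%), with 8 (3.29%) at an unadjusted p under 0.05, and no member was among those. The smallest unadjusted p of the family were 0.055 for miR-34b-3p, 0.063 for miR-34a-5p and 0.0922 for miR-34a-3p, each with a limma adjusted p of 0.798.

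The members followed each other across arrays in unequal degree. Over the 8 arrays, which share a slide, miR-34b-5p and miR-34c-5p, the neighbours on chromosome 8, had a Pearson correlation of 0.96. Without control 1 it was 0.90. Their sequences differ at only 2 of 23 positions, and whether their probes tell them apart was not tested. miR-34a-5p and miR-449a-5p, from different chromosomes, had 0.81, and 0.71 without that array. miR-34a-5p and miR-34c-5p had 0.59, but 0.24 without control 1. The median over all pairs of miRNAs detected on all arrays was 0.073. The arms of a hairpin had 0.51 for miR-34a, -0.21 for miR-34b and 0.043 for miR-34c. Without control 1 these were 0.82, 0.26 and 0.55, each higher than with that array and in the same order.

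Outside the family, the miRNAs with the most similar levels over the 8 arrays, among 179 candidates, differed by member. For miR-34a-5p they were miR-500-3p (r = 0.90), miR-532-5p (0.89) and miR-466b-5p (0.84), and for miR-449a-5p they were miR-532-5p (0.93), miR-30a-5p (0.91) and miR-503-5p (0.90). For miR-34b-5p they were miR-18a-5p (0.96), miR-29b-3p (0.94) and miR-106b-5p (0.94), and for miR-34c-5p miR-20a-3p (0.95), miR-24-2-5p (0.92) and miR-301a-3p (0.91). Thus miR-532-5p was named for both miR-34a-5p and miR-449a-5p, whereas miR-34b-5p and miR-34c-5p, the pair on chromosome 8, had no such miRNA in common. Among the 3p arms detected everywhere, miR-34b-3p was closest to miR-23a-5p (0.85), miR-326-3p (0.80) and miR-3562 (0.78). For miR-34c-3p, mostly at the floor, the values were 0.71 for miR-484, 0.71 for miR-598-3p and 0.66 for miR-326-3p.

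Other miRNAs reported to act under p53 were described beside the family, while p53 itself was not measured. Of 11 listed, 10 were on the array and 4 were tested: miR-107-3p, miR-143-3p, miR-16-5p and miR-192-5p. None was called in any comparison. Above 0 were 2 of the 4 after haloperidol treatment and 1 of the 4 after each other drug, and their medians of -0.0032, -0.19 and -0.13 lay near those of all miRNAs (-0.15, -0.15 and -0.17). miR-143-3p had the largest differences, -0.77, -0.53 and -0.77, with haloperidol 2 and risperidone 2 at the floor. Undetected on every array were miR-215, miR-145-5p, miR-141-3p, miR-200c-3p and miR-203a-3p. The remaining miR-194-5p was detected only on haloperidol 1, at the floor, and was not tested.

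**Figure D4:**
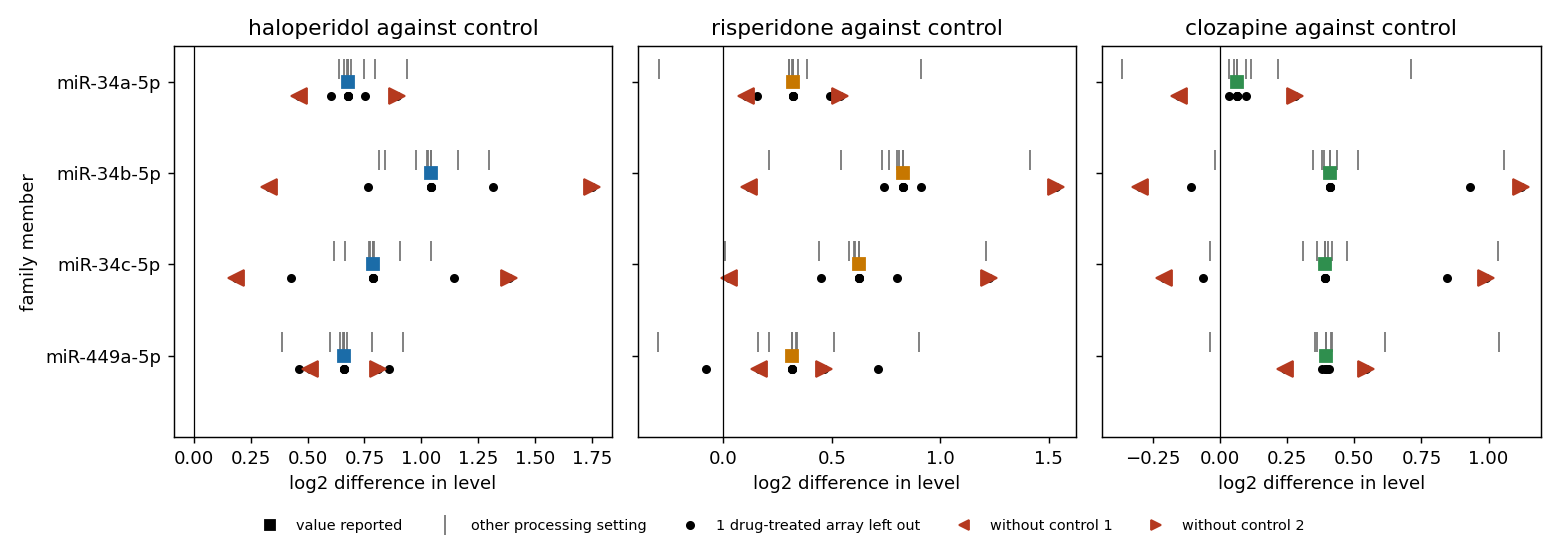
Log2 difference from control of the 4 arms with the seed GGCAGUG as reported (squares), under other processing settings (grey ticks), with 1 drug-treated array left out (black dots) and with control 1 or control 2 left out (red triangles pointing left or right). For haloperidol all values lie above 0, while for clozapine those of the miR-34 arms without control 1 lie at -0.15, -0.30 and -0.21; x ranges differ between panels.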

How the data were processed

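The authors deposited, for each of 8 single-colour (Cy3) rat miRNA arrays, spot-level and gene-level signals of unit intensity, made with Agilent Feature Extraction 10.7.3.1 per the file headers, with no scaling between arrays. The deposited detection and outlier flags (0 or 1) have the unit other. Spots not marked as outliers gave a mean background-subtracted signal per probe, and a miRNA's probes were summed. Scaling was to each array's own 75th percentile, taken over the 291 probes above background (over 50% of spots) on all arrays. Before taking log2, values under 0.0134, the lowest 5% of scaled detected signals, were raised to it. Testing was limited to the 243 miRNAs that were detected on both arrays of some group, which left out 476. Group means over 8 arrays were fitted with limma 3.58.1 (lmFit, eBayes) in R 4.3.3, two-sided, with 4 residual and 5.43 total degrees of freedom and Benjamini-Hochberg adjustment at 0.05. Precision is limited by the number of arrays. The procedure was tested on simulated data, drawn without effects of slide row or array brightness.

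Replicate numbers are also slide rows. Deviations of same-numbered arrays from their group means correlated at 0.16 to 0.71 in all 6 pairs of groups, so the number was also fitted as a block.

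All members of the family were named, and for each member detected on all arrays the 3 miRNAs outside it with the highest correlation. The members and lists were chosen with earlier results of these data known. Alternatives covered scaling, background correction, probe summary, filter, floor, block, variance model and arrays left out.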

Additional observations from a re-analysis of the deposited data

How the results depend on the processing

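No member was called in any comparison under any alternative. The weak signals of the 3p arms limit what can be read from them. With the replicate number as a block, which treats same-row arrays as pairs, limma called 0, 1 and 2 miRNAs for haloperidol, risperidone and clozapine against control, none a member, and it changed no other call. Leaving out 1 array at a time gave 0 to 5, 0 to 6 and 0 to 7 calls, the highest each time without control replicate 2; the cause was not tested.

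The 5p differences for haloperidol kept their direction throughout. Leaving out single arrays, the haloperidol differences of miR-34b-3p ran from -0.33 to 0.11 and of miR-34c-3p from -0.19 to 0.077. For risperidone miR-449a-5p ran from -0.081 to 0.71. For clozapine miR-34a-5p ran from -0.15 to 0.28, miR-34b-5p from -0.30 to 1.12, miR-34c-5p from -0.21 to 0.99, and the gap between the arms of miR-34c from -0.012 to 1.18. Between drugs, risperidone against haloperidol ran from -0.49 to 0.059 for miR-34b-5p, -0.52 to 0.20 for miR-34c-5p and -0.74 to 0.050 for miR-449a-5p. Clozapine against haloperidol ran from -0.85 to 0.058 for miR-34c-5p. Clozapine against risperidone ran from -0.75 to 0.16 for miR-34a-3p, -0.93 to 0.10 for miR-34b-5p, -0.69 to 0.22 for miR-34c-5p and -0.32 to 0.47 for miR-449a-5p. Without both dimmest arrays, a choice made after seeing the data, miR-34b-5p and miR-34c-5p were at -0.11 and -0.064 for clozapine against control, miR-449a-5p at 0.050 for risperidone against haloperidol, and miR-34b-3p and miR-449a-5p at 0.0068 and -0.33 for clozapine against risperidone.

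Scaling and background correction moved the median of all miRNAs, and some differences changed sign. With normexp these included larger ones, such as miR-34a-3p for clozapine against control, which went from -0.86 to 0.70. The normexp setting added an offset of 50 to every spot, above the miR-34a-3p probe signals of 2.11 and 9.07 on clozapine 2. The part of the offset in these changes was not tested further. Against control, the 75th percentile over all probes put miR-34b-3p and miR-34c-3p at 0.0096 and 0.12 for haloperidol, and miR-34a-3p and miR-34b-3p at 0.021 and 0.063 for risperidone. Quantile normalization put miR-34c-3p at 0.068, 0.034 and 0.026 for haloperidol, risperidone and clozapine. Cyclic loess put it at 0.15, 0.11 and 0.19, and miR-34b-3p at 0.072 for haloperidol. With no scaling miR-34b-3p was at 0.15 for haloperidol, miR-34a-5p and miR-449a-5p at -0.30 and -0.30 for risperidone, and miR-34a-5p, miR-34b-5p, miR-34c-5p and miR-449a-5p at -0.37, -0.019, -0.039 and -0.036 for clozapine. With normexp miR-34a-3p was at -0.052 for haloperidol; miR-34a-3p, miR-34b-3p and miR-34c-3p were at 0.41, 0.41 and 0.48 for risperidone and at 0.70, 0.71 and 0.89 for clozapine. The gap between arms was then -0.10 for miR-34a under risperidone, and -0.61, -0.19 and -0.42 for miR-34a, miR-34b and miR-34c under clozapine.

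Between drugs, the 75th percentile over all probes put risperidone against haloperidol at 0.11 for miR-34a-5p, 0.053 for miR-34b-3p, 0.25 for miR-34b-5p, 0.30 for miR-34c-5p and 0.12 for miR-449a-5p, and clozapine against haloperidol at 0.13 for miR-34c-5p and 0.26 for miR-449a-5p. Normexp put miR-34a-3p, miR-34b-3p, miR-34c-3p and miR-449a-5p at 0.47, 0.49, 0.69 and 0.12 for risperidone against haloperidol and at 0.75, 0.79, 1.11 and 0.22 for clozapine against haloperidol, and miR-34a-3p and miR-34b-3p at 0.29 and 0.30 for clozapine against risperidone. Cyclic loess put miR-34c-3p at 0.046 for clozapine against haloperidol, and quantile normalization put miR-34b-3p at 0.046 for clozapine against risperidone.

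Of the 3 most similar miRNAs, quantile normalization kept 1 for miR-34a-5p, 0 for miR-34b-3p, 1 for miR-34b-5p and 1 for miR-34c-3p among the top 3. Without either control 1 to 2 were kept for miR-34b-5p, 0 to 3 for miR-34c-3p, 1 to 3 for miR-34c-5p and 1 to 2 for miR-449a-5p.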

Other observations

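miR-449c-5p, the remaining rat miRNA with the seed GGCAGUG, lies beside Mir449a in the genome but was listed as detected on only 2 arrays, haloperidol 1 and risperidone 1. Its summed background-subtracted signal was below 0 on all 8 arrays, so the deposited flag and the signal disagree and no level was given for it.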
